A study of Mus musculus with 6 samples.

Results

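The genes described here are 9 components of Hedgehog signaling and of the forkhead transcription factor family of the gut mesenchyme: *Gli1*, *Gli2*, *Gli3*, *Ptch1*, *Hhip*, *Smo*, *Foxf1*, *Foxf2* and *Foxl1*. They were listed by name for their place in the pathway, with earlier results of these data known, and all 9 were found among the 20327 gene symbols counted. In the gut, Hedgehog ligands come mainly from epithelial cells and act on the mesenchyme beneath. A ligand that binds the receptor Ptch1 frees Smo from inhibition, and Smo, acting in the primary cilium, shifts Gli2 and Gli3 from repressor to activator forms. *Gli1*, *Ptch1* and *Hhip* are transcribed in response, and the forkhead factors act in the same mesenchymal cells, where they take part in the growth of muscle and in signals to the epithelium.

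RNA was sequenced from EGFP+ (EGFP-Positive, IL-11+) and EGFP- (EGFP-Negative, IL-11-) stromal cells of the inflamed mouse colon, with 3 libraries per group from 3 mice. Both groups came from *Il11-Egfp* reporter mice, a single transgenic line on a C57BL/6 background in which *Egfp* was placed in *Il11* on a bacterial artificial chromosome. The mice, 9 to 15 weeks old, had drunk 1.5% dextran sulfate sodium (DSS), a chemical that injures the epithelium, for 5 days, and cells negative for CD45, CD31, EpCAM and Ter119 were sorted on day 7. The paper gives a purity short of complete for the sorted EGFP+ fibroblasts. What other cells carried over in the sort added to low EGFP+ counts was not tested. The question addressed is how the cells that turn on *Il11* in colitis differ from the other stromal cells of the same colon, and no untreated mice were analysed here. Libraries were made by 5′Tag-seq, which counts tags from the 5′ side of polyadenylated RNA, and held 1022851 to 1169817 tags each. Levels are given as normalized CPM, tags scaled to a common library total with edgeR's TMM factors, a scale on which a single tag is worth 0.801 to 1.04. The sort was reflected in *Il11*, with 28, 51 and 89 tags in the EGFP- libraries 1, 2 and 3 and 1357, 732 and 2658 tags in the EGFP+ libraries.

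A gene was tested when 3 or more of the 6 libraries held 10 or more of its tags. It was called when the quasi-likelihood test of edgeR gave an adjusted p under 0.05 and the fold change was over 2. Of the 9 members, 7 passed this filter, and *Gli1* and *Foxl1* did not. Among the 7, 1 member (*Hhip*) was called lower in EGFP+ cells, where 6.3% of the 9334 tested genes were called lower. In the other direction 0 members were called by edgeR, where 3.45% of tested genes were called higher. At an unadjusted p under 0.05, 2 members were lower and 1 was higher, where 14.2% of tested genes were lower and 12.6% higher. DESeq2 called 1 member lower and 0 higher, where it called 5.17% of tested genes lower and 3.04% higher. The EGFP+ libraries lay entirely below the EGFP- libraries for 1 of the 7 tested members (*Hhip*), against 16.4% of tested genes, and entirely above them for 1 (*Foxf1*), against 15%.

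**Figure D1:**
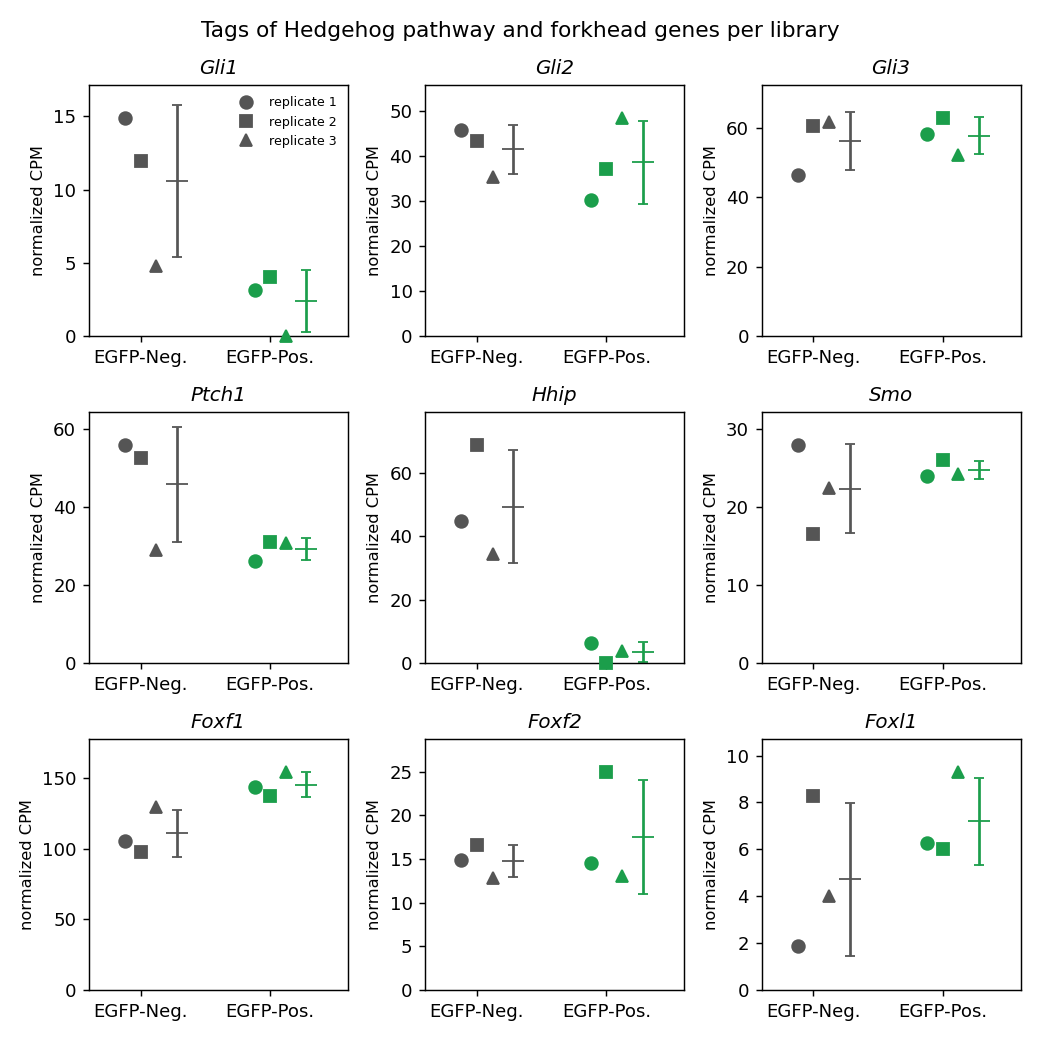
Normalized CPM (tags after TMM scaling) of each of the 9 genes in the 6 libraries, with gray symbols for EGFP- and green symbols for EGFP+ cells, the symbol shape giving the replicate number and the bars the mean ± SD (n = 3). For *Hhip* and *Gli1* the EGFP+ libraries lie below all EGFP- libraries, for *Foxf1* they lie above them, and for the other 6 genes the groups overlap.

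*Hhip* (chromosome 8, 79965851 to 80058006 on the minus strand, GRCm38) encodes a membrane protein that binds Hedgehog ligands and keeps them from Ptch1. It had 48, 75 and 43 tags in EGFP- replicates 1, 2 and 3, which is 44.8, 69.0 and 34.5 normalized CPM. In EGFP+ replicates 1, 2 and 3 it had 6, 0 and 4 tags, or 6.25, 0 and 3.73 normalized CPM. The highest EGFP+ library thus stood far under the lowest EGFP- library, and EGFP+ replicate 2 had no tag at all. The mean was 49.4 ± 17.7 in EGFP- and 3.33 ± 3.15 normalized CPM in EGFP+ cells (SD, n = 3). The log2 fold change of *Hhip* was -3.85 (SE 0.485, 95% confidence interval -4.87 to -2.83, edgeR adjusted p = 1.52e-05). *Hhip* passed the filter through its EGFP- libraries only, and without a filter its log2 fold change was -3.82 (edgeR adjusted p = 6.62e-20). Fits with no filter could give far smaller adjusted p at a like fold change. For *Il11* the edgeR adjusted p was 8.28e-08 with the filter and 2.83e-111 without. The p-values of fits with and without a filter are therefore not comparable. Without EGFP+ replicate 1 the log2 fold change of *Hhip* was -4.59 (edgeR adjusted p = 4.17e-05). Over 15 alternatives its adjusted p ran from 2.46e-21, in a fit with no filter, to 0.000306. *Hhip* was lower in the EGFP+ library of each of the 3 same-numbered pairs. Summed over the libraries, 166 tags stood against 10, and the ratio of the scaled sums was 14.8 with a 95% counting interval of 7.83 to 31.4. Such intervals cover counting error only and leave out the spread between the libraries of a group. Tags copied by PCR are not independent molecules, so even the counting error may be larger.

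The genes whose pattern over the 6 libraries was most like that of *Hhip* were *Myom1*, *Notch3* and *Ndst3*. Like *Hhip*, these genes passed the filter through their EGFP- libraries only. Likeness was the root mean square difference of log2 normalized CPM, each gene centred on its own mean, over 8740 tested genes with a mean of at least 10 normalized CPM. *Myom1*, which encodes a protein of the muscle M-band, differed by 0.381 and had 29, 41 and 32 tags in EGFP- and 2, 0 and 2 tags in EGFP+ replicates, at least 10.1-fold lower against a floor of 3 tags per library. *Notch3*, a Notch receptor of smooth muscle and pericytes, differed by 0.474 and had 69, 57 and 67 tags in EGFP- and 4, 0 and 7 tags in EGFP+ replicates. *Ndst3*, an enzyme of heparan sulfate synthesis, differed by 0.518. Its 23, 23 and 27 EGFP- tags stood against 2, 0 and 2 EGFP+ tags, at least 7.2-fold lower.

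Most markers of smooth muscle and of interstitial cells, and some of pericytes, were lower in the same libraries as *Hhip*. Of all tested genes, edgeR called 6.3% lower and 3.45% higher. Of the 9 smooth muscle markers, 8 were lower in EGFP+ cells, and their summed level was 2345, 2842 and 3599 normalized CPM in EGFP- replicates 1, 2 and 3 against 132, 182 and 359.7 in EGFP+ replicates. The most abundant of them, the smooth muscle myosin gene *Myh11*, had 850, 943 and 1332 tags against 18, 18 and 84. *Cnn1* was at 0 in EGFP+ replicate 1, and no smooth muscle marker was at 0 in all 3 EGFP+ libraries. Pericyte markers summed to 2622, 2248 and 2063 normalized CPM in EGFP- and to 1057, 889.9 and 786 in EGFP+ replicates, with 4 of 7 tested markers lower and 0 higher by edgeR and by DESeq2. At an unadjusted p under 0.05, 4 were lower and 2 higher, *Abcc9* with a log2 fold change of 0.67 (edgeR adjusted p = 0.0156) and *Kcnj8* with 0.72 (edgeR adjusted p = 0.0372), both short of a fold change of 2. Among them *Rgs5* was the most abundant, *Notch3* was at 0 in EGFP+ replicate 2, and *Higd1b* was at 0 in EGFP+ replicates 1 and 2. The 3 markers of interstitial cells of Cajal, the pacemaker cells of gut muscle, were lower as well and summed to 265, 164 and 252 normalized CPM in EGFP- and 20.8, 20.02 and 49.4 in EGFP+ replicates. *Ano1* was the most abundant of these and at 0 in EGFP+ replicate 2, and *Kit* was at 0 in EGFP+ replicates 1 and 2. Among the called markers, *Cnn1*, *Notch3* and *Kit* passed the filter through their EGFP- libraries only. In bulk RNA, fewer cells of a type and less RNA per cell cannot be told apart, and the part of these cell types in the *Hhip* difference was not tested. Within the EGFP- group, replicate 3 had the lowest *Hhip*, *Gli1* and *Ptch1*, the highest summed level of smooth muscle markers and the lowest summed level of pericyte markers.

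*Gli1* (chromosome 10, 127329882 to 127341974) is the transcription factor of the pathway that is itself a target of activated Gli proteins. It had 16, 13 and 6 tags in EGFP- replicates 1, 2 and 3 and 3, 4 and 0 tags in EGFP+ replicates. In normalized CPM these were 14.9, 11.96 and 4.81 against 3.13, 4.004 and 0, so that the groups did not overlap, though EGFP- replicate 3 came close to the EGFP+ libraries. Summed over the libraries there were 35 tags against 7, a ratio of scaled sums of 4.45 with a 95% counting interval of 1.95 to 11.9. With so few tags *Gli1* did not pass the filter. When all 20327 symbols were tested without a filter, its log2 fold change was -2.08 (SE 0.624, edgeR adjusted p = 0.0132), and it was called lower along with 3.77% of symbols. As stated for *Hhip*, the p-values of such a fit are not comparable with those of the filtered fit. In 3 further fits that held *Gli1* the adjusted p ran from 0.00769 to 0.155, and the call was lost in DESeq2 without a filter, which gave the 0.155.

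*Ptch1* (chromosome 13, 63508328 to 63573598), the ligand receptor and a second feedback gene, had 55.9, 52.4 and 28.9 normalized CPM in EGFP- replicates 1, 2 and 3. In EGFP+ replicates it had 26.1, 31.0 and 30.8 normalized CPM. EGFP- replicates 1 and 2 stood above all EGFP+ libraries, and replicate 3 fell among them. The log2 fold change of *Ptch1* was -0.63 (SE 0.269, 95% confidence interval -1.19 to -0.06, edgeR adjusted p = 0.134), and *Ptch1* was not called. The EGFP+ to EGFP- ratio of the same-numbered pairs was 0.466, 0.592 and 1.07. Without EGFP- replicate 3 the log2 fold change was -0.89 with an edgeR adjusted p of 0.0215, still short of a fold change of 2, and over 16 alternatives the adjusted p ran from 0.0215 to 0.439. The interval leaves room for a fall of over 2 times as well as for almost no difference.

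The signal transducer and the remaining Gli factors had like levels in both groups. *Smo* (chromosome 6, 29735503 to 29761365), the membrane protein that carries the signal inward, had 28.0, 16.6 and 22.4 normalized CPM in EGFP- and 24.0, 26.0 and 24.2 in EGFP+ replicates 1, 2 and 3. All 3 EGFP+ values of *Smo* fell inside the EGFP- range. Its log2 fold change was 0.15 (SE 0.287, 95% confidence interval -0.45 to 0.75, edgeR adjusted p = 0.803), and without EGFP- replicate 2 it was -0.02.

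*Gli2* (chromosome 1, 118834132 to 119053619), the main activator of target genes, had 45.7, 43.2 and 35.3 normalized CPM in EGFP- and 30.2, 37.0 and 48.5 in EGFP+ replicates 1, 2 and 3. The EGFP+ libraries held both the lowest and the highest value of *Gli2*. Its log2 fold change was -0.09 (SE 0.241, 95% confidence interval -0.60 to 0.42, edgeR adjusted p = 0.861), and without EGFP+ replicate 1 it was 0.05. *Gli3* (chromosome 13, 15463235 to 15730026), which acts mainly as a repressor when no ligand is bound, had 46.6, 60.7 and 61.7 normalized CPM in EGFP- and 58.3, 63.1 and 52.2 in EGFP+ replicates. The groups overlapped throughout, with a log2 fold change of 0.03 (SE 0.202, 95% confidence interval -0.39 to 0.46, edgeR adjusted p = 0.942). The sign of the *Gli3* value turned with library size only (-0.05), with at least 10 tags in all 6 libraries (-0.02), without EGFP- replicate 1 (-0.09) and without EGFP+ replicate 2 (-0.03). For *Smo*, *Gli2* and *Gli3* the intervals exclude a fold change of 2 in either direction.

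Among the forkhead factors, *Foxf1* (chromosome 8, 121084386 to 121088144 on the plus strand), which is needed for the growth of gut mesenchyme, had 105, 97.5 and 129.8 normalized CPM in EGFP- replicates 1, 2 and 3. In EGFP+ replicates it had 144, 137 and 155 normalized CPM. The groups did not overlap, with the lowest EGFP+ library a little above EGFP- replicate 3. The log2 fold change of *Foxf1* was 0.39 (SE 0.171, 95% confidence interval 0.03 to 0.75, edgeR adjusted p = 0.15), and all 3 same-numbered pairs were higher in EGFP+ cells, by ratios of 1.36, 1.41 and 1.19. *Foxf1* was not called in any of 16 alternatives, over which its log2 fold change ran from 0.30 to 0.51.

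*Foxf2* (chromosome 13, 31625816 to 31631403), its close relative, had 14.9, 16.6 and 12.8 normalized CPM in EGFP- and 14.6, 25.0 and 13.1 in EGFP+ replicates 1, 2 and 3. EGFP+ replicate 2 stood apart above the other 5 libraries. The log2 fold change of *Foxf2* was 0.25 (SE 0.346, 95% confidence interval -0.48 to 0.98, edgeR adjusted p = 0.708), and without EGFP+ replicate 2 it was -0.09, so that this library set its sign. *Foxl1* (chromosome 8, 121127940 to 121130644), which marks subepithelial telocytes, had 2, 9 and 5 tags in EGFP- and 6, 6 and 10 tags in EGFP+ replicates. These low counts overlapped, summed to 16 against 22 tags, and gave a ratio of scaled EGFP+ to EGFP- sums of 1.55 with a 95% counting interval of 0.775 to 3.15. Without a filter the log2 fold change of *Foxl1* was 0.64 (SE 0.581, edgeR adjusted p = 0.658), and *Foxl1* was not called.

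*Foxf1* and *Foxl1* lie in a cluster on chromosome 8 together with the long noncoding RNA gene *Fendrr*, whose annotated end nearest to *Foxf1* is 1275 bases away and which is read from the opposite strand (121054882 to 121083110). Of the 6 genes listed as neighbors of the forkhead members, only *Fendrr* had enough tags to be tested. It had 33, 34 and 57 tags in EGFP- and 11, 14 and 21 tags in EGFP+ replicates 1, 2 and 3. Every EGFP+ library was below every EGFP- library. The log2 fold change of *Fendrr* was -1.25 (SE 0.302, edgeR adjusted p = 0.0071), and *Fendrr* was called lower in all 16 alternatives. So *Foxf1* and *Fendrr*, which start next to each other, had log2 fold changes of opposite sign, of which only that of *Fendrr* was called, and the difference between them was not tested. An annotated gene on the plus strand, *Gm20388*, spans *Foxf1*, *Foxl1* and *Fendrr*. In the first 300 nt of the annotated transcripts of *Fendrr* and of the 9 members, 0 of the 50-nt windows also occurred in another gene.

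The genes around the members in the pathway were read in the same way, and their counts stand beside the 6.3% of all tested genes called lower and the 3.45% called higher. Of the ligands, *Ihh* had 1 tag in the 6 libraries and *Dhh* at most 3 tags in a library, and *Shh* was not analysed here. Of 11 genes for release and reception of the ligand, 6 were tested, 3 of which were lower and 0 higher in EGFP+ cells by edgeR. DESeq2 also gave 3 lower and 0 higher, and at an unadjusted p under 0.05 there were 5 lower and 1 higher. The median log2 fold change of the list was -1.08, where that of all tested genes was -0.00359.

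*Gpc3*, a glypican that binds Hedgehog ligands and competes with Ptch1, had 126, 108 and 182 tags in EGFP- and 8, 16 and 40 tags in EGFP+ replicates 1, 2 and 3, with a log2 fold change of -2.53 (SE 0.314, edgeR adjusted p = 1.36e-05). EGFP+ replicate 3 stood above the other EGFP+ libraries in *Gpc3*, and without it the log2 fold change was -3.31. *Gas1*, a co-receptor that helps the ligand to bind Ptch1, had 122, 121 and 147 tags against 39, 36 and 57, with a log2 fold change of -1.40 (SE 0.192, edgeR adjusted p = 4.18e-05). *Cdon*, a second co-receptor, had 22, 15 and 20 tags against 4, 3 and 5, with a log2 fold change of -2.05 (SE 0.435, edgeR adjusted p = 0.00261), and passed the filter through its EGFP- libraries only. For each of these genes the groups stood apart, as for *Hhip*. The third co-receptor, *Boc*, had 42, 28 and 44 tags against 16, 19 and 25, and its log2 fold change of -0.76 (SE 0.28, edgeR adjusted p = 0.0787) was not called. *Scube1*, a secreted protein of a family that helps to release the ligand, went the other way with 69, 83 and 62 tags against 81, 128 and 95, and its log2 fold change of 0.67 (SE 0.211, edgeR adjusted p = 0.0387) was short of a fold change of 2.

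**Figure D2:**
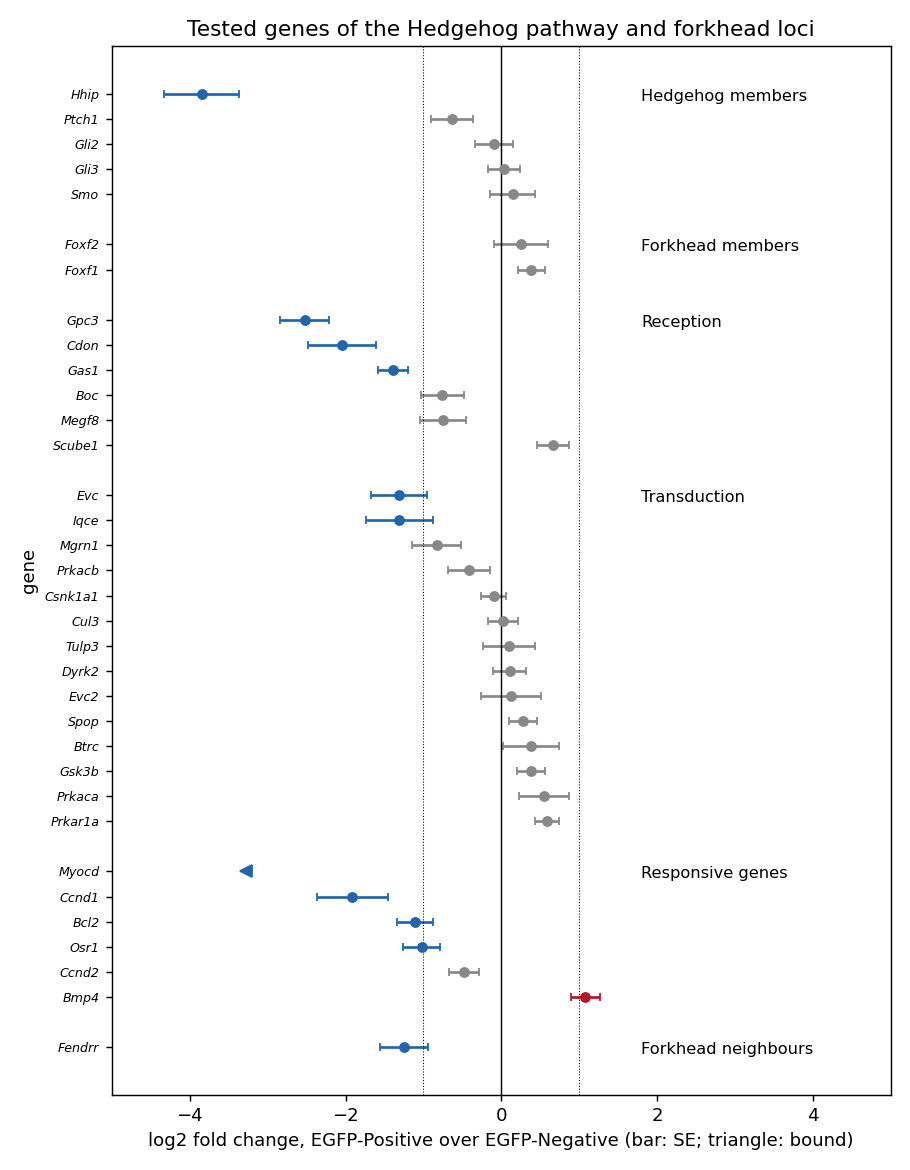
Log2 fold change of EGFP+ over EGFP- cells with its SE (bars) for tested genes grouped by role, in blue where called lower, red where called higher and gray where not called; dotted lines mark a fold change of 2, and the triangle for *Myocd* is an upper limit on its log2 fold change from the floor of 3 tags. *Hhip* at -3.85 and *Gpc3* at -2.53 lie left of the other members and reception genes, and *Bmp4* at 1.08 is the gene drawn that was called higher.

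Between *Smo* and the Gli factors, 14 of 19 listed genes were tested, with 2 lower and 0 higher by edgeR, 3 lower and 2 higher at an unadjusted p under 0.05, and 0 in either direction by DESeq2. Their median log2 fold change was 0.11. *Evc*, a ciliary partner of Smo, had 30, 18 and 28 tags in EGFP- and 7, 12 and 8 tags in EGFP+ replicates, with a log2 fold change of -1.31 (SE 0.363, edgeR adjusted p = 0.0177). The call of *Evc* was lost without EGFP- replicate 1, EGFP+ replicate 1 or EGFP+ replicate 3, at edgeR adjusted p of 0.089, 0.0664 and 0.059, and over 15 alternatives the adjusted p ran from 0.00588 to 0.123. *Iqce*, which anchors the Evc complex in the cilium, had 14, 16 and 15 tags against 4, 7 and 5, with a log2 fold change of -1.31 (SE 0.426, edgeR adjusted p = 0.0436). *Iqce* passed the filter through its EGFP- libraries only, and without a filter it was not called (edgeR adjusted p = 0.0848). Its call was also lost whichever library was left out, at edgeR adjusted p of 0.053 to 0.131, and was kept in 5 of 15 alternatives, over which the adjusted p ran from 0.0335 to 0.292. The most abundant gene of the list was *Prkar1a*, a regulatory subunit of protein kinase A, a kinase that restrains the pathway, with a log2 fold change of 0.59 (SE 0.158, edgeR adjusted p = 0.015), short of a fold change of 2. *Sufu*, the main inhibitor of the Gli factors, had 4, 7 and 7 tags against 6, 9 and 7 and was too low to test.

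Genes that build or move cargo in the cilium numbered 23, of which 16 were tested, with 1 lower and 0 higher by edgeR, 4 lower and 1 higher at an unadjusted p under 0.05, and 0 by DESeq2. The share called lower is near the 6.3% of all tested genes, and the median log2 fold change of the list was -0.22. *Ift81*, an intraflagellar transport gene, had 22, 16 and 32 tags in EGFP- and 5, 2 and 16 tags in EGFP+ replicates. The groups overlapped at 16 tags. Its log2 fold change was -1.42 (SE 0.473, edgeR adjusted p = 0.0481), and without EGFP- replicates 1, 2 or 3 or EGFP+ replicates 1 or 2 the adjusted p was 0.104, 0.057, 0.159, 0.152 and 0.202, while without EGFP+ replicate 3 the log2 fold change was -2.49 and the adjusted p 0.00279. Over 15 alternatives the adjusted p of *Ift81* ran from 0.00241 to 0.202. *Arl13b*, the most abundant of the list, had a log2 fold change of -0.05 (SE 0.182, edgeR adjusted p = 0.907), and without EGFP+ replicate 1 it was 0.03.

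Of 8 genes known to respond to Hedgehog signaling in mesenchyme other than the members, 6 were tested, with 4 lower and 1 higher and a median log2 fold change of -1.07, also with *Myocd* at its bound. *Myocd*, a coactivator of smooth muscle genes, had 23, 36 and 40 tags in EGFP- and 0, 0 and 2 tags in EGFP+ replicates, at least 9.71-fold lower (edgeR adjusted p = 7.75e-06). *Myocd* and *Ccnd1* passed the filter through their EGFP- libraries only. *Ccnd1*, a cyclin, had 15, 27 and 18 tags against 2, 6 and 6, with a log2 fold change of -1.91 (SE 0.458, edgeR adjusted p = 0.00668), and its call was lost without EGFP- replicate 2 (adjusted p = 0.0537, the highest of 15 alternatives, which began at 0.000355). *Bmp4*, a growth factor made by gut mesenchyme, went the other way with 253, 258 and 230 tags in EGFP- and 557, 421 and 416 tags in EGFP+ replicates, a log2 fold change of 1.08 (SE 0.187, edgeR adjusted p = 4.27e-04). The response genes thus stood on both sides of the EGFP- level. The log2 fold change of *Bmp4* dropped under 1 when libraries were scaled by size only (0.99), without EGFP- replicate 3 (0.96) and without EGFP+ replicate 1 (0.89), which ended the call through the fold threshold.

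The cell survival gene *Bcl2* had 83, 62 and 90 tags in EGFP- and 22, 39 and 36 tags in EGFP+ replicates, with a log2 fold change of -1.11 (SE 0.233, edgeR adjusted p = 0.00247), which without EGFP+ replicate 1 was -0.92 and no longer called. *Osr1*, a transcription factor of the developing foregut mesenchyme, had 51, 50 and 67 tags against 24, 28 and 21, with a log2 fold change of -1.02 (SE 0.241, edgeR adjusted p = 0.00589). Without EGFP- replicate 3 it was -0.96 and without EGFP+ replicate 3 -0.90, and both ended the call, as did testing with no filter. Among 8 transcription factors of the gut mesenchyme, a list that also holds *Osr1*, 5 were tested, with 1 lower (*Osr1*), 1 higher (*Isl1*) and a median log2 fold change of 0.11. *Isl1*, which acts in the mesenchyme of the stomach, had 21, 11 and 33 tags in EGFP- and 34, 35 and 58 tags in EGFP+ replicates, with a log2 fold change of 1.13 (SE 0.314, edgeR adjusted p = 0.0181). The *Isl1* call was lost without EGFP- replicate 2 (0.84, adjusted p = 0.103) and without EGFP+ replicate 3 (0.88, adjusted p = 0.105), and in DESeq2 without a filter (adjusted p = 0.0609), within a range of 0.000291 to 0.105 over 16 alternatives. *Tcf21*, the most abundant of these factors, had a log2 fold change of 0.11 (SE 0.17, edgeR adjusted p = 0.743), and without EGFP- replicate 3 it was -0.003.

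Beyond *Foxf1*, *Foxf2* and *Foxl1*, 26 of 40 listed forkhead genes were counted and 12 tested. By edgeR 0 of the 12 were called, with 1 higher and 1 lower at an unadjusted p under 0.05, and DESeq2 also called 0. The median log2 fold change was -0.04, and *Foxo3*, the most abundant, had -0.30. The tested members of the family, *Foxf1* and *Foxf2* among them, were therefore without a call at these thresholds.

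In the RefSeq promoter table (GRCm38.p6), which holds 250 bases before to 50 after each annotated start, 6 of the 9 members matched (*Gli2*, *Gli3*, *Ptch1*, *Hhip*, *Smo* and *Foxf2*), while *Gli1*, *Foxf1* and *Foxl1* are named only. The Gli-binding motif GACCACCCA and its reverse complement TGGGTGGTC were searched on the whole window. Neither was in any of the 6 member windows, and 83 of all 32851 windows, or 0.253%, held one. The *Ptch1* window (63565686 to 63565985, minus strand) lies inside the gene, so the bases before the gene's start at 63573598 were not searched. The *Gli3* window (15463473 to 15463772) also lies inside its gene, which starts at 15463235. The upstream bases of *Hhip*, the member that was called, are shown to give the sequence before its start (chr8:80058009-80058258, minus strand, 5′ to 3′), with the 9 bases closest to the motif in capitals.
*Hhip*: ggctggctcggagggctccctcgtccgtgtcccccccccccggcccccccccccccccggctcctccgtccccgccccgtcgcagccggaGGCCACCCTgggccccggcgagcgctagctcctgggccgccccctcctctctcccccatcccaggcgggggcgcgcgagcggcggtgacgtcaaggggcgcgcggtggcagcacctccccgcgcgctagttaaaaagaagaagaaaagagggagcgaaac
These 9 bases differ from the motif at 2 positions, and 58.3% of all windows hold a stretch at least that close.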

How the data were processed

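The authors trimmed the reads of 6 libraries (cutadapt 1.18), mapped them to mm10 RefSeq RNA in one orientation (Bowtie2 2.2.5) and deposited the count of tags per gene symbol, without normalization; versions, with R 3.5.1, are from the submitters' processing notes. How tags with several matches were handled, and whether molecular identifiers were used, is not given in the sources used here. The filter in the methods, printed as excluding 10 tags or more, was read as keeping them. Counts of genes that reached 10 tags in 3 or more libraries were scaled by TMM to full library totals and tested in R 4.3.3 with edgeR 4.0.16 (glmQLFit, glmQLFTest, Benjamini-Hochberg adjustment over all tested genes). The fit was tested on simulated data.

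Named genes were the members, called and most abundant genes of pathway lists (at most 6 of a list), and the most abundant and smallest-p marker of each cell type. *Boc*, *Scube1*, *Sufu*, *Ihh*, *Dhh*, *Abcc9*, *Kcnj8*, *Bmp3*, *Lum*, *Pdgfra* and markers at 0 were chosen after their values were seen. Some marker genes are not reported here. The lists, like the members, were chosen with earlier results of these data known. Same-numbered libraries were taken as paired in the pair ratios and the replicate block only. The methods name 3 mice, and the deviations of these libraries from the group means correlated across 5063 genes (r = 0.23, 0.185 and 0.264). Genes are not independent replicates. The main fit was unpaired, so its SEs, intervals and adjusted p do not use the pairing. Alternatives were RLE, library size only, iterative TMM, DESeq2 1.42.0, other filters, the replicate block, the adjusted p alone and each library left out. Positions are from GENCODE mouse release M21 (GRCm38).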

Additional observations from a re-analysis of the deposited data

How the results depend on the processing

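*Hhip* was called lower in all 15 alternatives that tested it, with log2 fold changes of -4.59 to -3.29 and adjusted p of 2.46e-21 to 0.000306, and 0 members were called higher in any alternative. The lowest adjusted p of *Hhip* came from a fit with no filter and is not comparable with those of the filtered fits. Members called lower numbered 2 (*Hhip* and *Gli1*) with no filter, and 2 with the replicate block and no filter and with a filter of at least 3 tags in at least 3 libraries, both added after seeing the data. The number was 0 with at least 10 tags in all 6 libraries, because *Hhip* was then not tested. That filter also left 256 genes called lower, against 588, since fewer genes were tested. By the adjusted p alone 651 genes were called higher, against 322, and with the replicate block and the adjusted p alone, added after seeing the data, 877 higher and 1014 lower. The replicate block itself gave 337 higher and 639 lower genes and changed no call of a member or of a list gene named here. Its adjusted p was 2.39e-09 for *Hhip*, 0.0871 for *Ptch1* and 0.0753 for *Foxf1*. Leaving out each library gave 1 member called lower each time. The depth limits *Gli1*, *Foxl1*, the ligands and *Sufu*, for which a few tags decide the value.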

Other observations

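Markers of different kinds of fibroblast differed in direction between the groups. Of all tested genes, edgeR called 3.45% higher and 6.3% lower, and DESeq2 3.04% and 5.17%. At an unadjusted edgeR p under 0.05, 12.6% were higher and 14.2% lower. Of 11 tested markers of subepithelial fibroblasts, the cells next to the epithelium that *Foxl1* also marks, 5 were higher and 0 lower in EGFP+ cells by edgeR (5 and 0 by DESeq2, 5 and 1 at an unadjusted p under 0.05), with a median log2 fold change of 0.71. *Nrg1*, a ligand of epithelial ErbB receptors and the most abundant of them, had 251, 193 and 159 tags in EGFP- and 1822, 1532 and 1328 tags in EGFP+ replicates 1, 2 and 3. *Bmp3* of the same list went the other way with a log2 fold change of -0.997 (edgeR adjusted p = 0.151) and was not called. Of 6 tested markers of adventitial fibroblasts, which lie around vessels, 4 were lower and 0 higher by edgeR (2 and 0 by DESeq2, 5 and 0 at an unadjusted p under 0.05), with a median log2 fold change of -1.14. *Cd34* had 181, 237 and 200 tags against 51, 87 and 114. Its log2 fold change was -1.14, and without EGFP- replicate 2 (-0.99) or EGFP+ replicate 1 (-0.91) it was not called. The list also holds *Dpt*, its most abundant gene, with a log2 fold change of -0.95 that was not called but passed a fold change of 2 with library size only (-1.02), without EGFP+ replicate 2 (-1.01) and without EGFP+ replicate 3 (-1.04). General fibroblast markers summed to 20430, 20250 and 22990 normalized CPM in EGFP- and to 40370, 32400 and 28880 in EGFP+ replicates, with 2 of 8 higher and 0 lower by edgeR (2 and 0 by DESeq2, 5 and 1 at an unadjusted p under 0.05) and *Dcn* the most abundant. *Pdpn* had a log2 fold change of 1.07 and was not called with library size only (0.97), without EGFP- replicate 1 (0.96) or without EGFP+ replicate 1 (0.96). *Lum* went the other way with -0.63 (edgeR adjusted p = 0.0403), short of a fold change of 2. *Pdgfra* is in both this list and the subepithelial list and was not called.

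Endothelial markers summed to 5, 4 and 3 tags in EGFP- and 0, 1 and 2 tags in EGFP+ replicates, epithelial markers to 3, 0 and 15 against 2, 1 and 4, and immune markers to 17, 17 and 15 against 15, 13 and 6. Mesothelial markers, which the sort did not address, summed to 16, 7 and 29 tags against 1, 0 and 2. Red blood cell genes, of a cell type that the sort for Ter119 was to remove as well, had 95, 0 and 372 tags in EGFP- and 17, 2 and 20 tags in EGFP+ replicates, so that EGFP- replicate 3, which also had the lowest *Gli1*, *Ptch1* and *Hhip* of its group, held the most.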
